A study of Bos taurus with 25 samples.

Results

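G0S2, the product of the G0/G1 switch gene 2, was examined together with the genes that build and break down triglyceride in the liver and mammary gland of lactating Holstein cows. Of 9 genes named for this purpose, G0S2, PNPLA2, ABHD5, LIPE, GPAM, DGAT1 and DGAT2 were found on the array, that is 7 of 27841 genes and transcripts, with 16 of the 43653 different probes, while MGLL, a monoacylglycerol lipase, and LPIN1, a phosphatidate phosphatase, were not found by name. The set was chosen by the log2 values of G0S2, which were higher in the liver of cows given vitamin B12, so that the comparison of B12 with control liver describes how the genes were picked and was not tested for any of them.

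Triglyceride is stored in lipid droplets and is released from them by lipases that act in sequence. PNPLA2, also called adipose triglyceride lipase, cuts the triglyceride, ABHD5 activates it, G0S2 binds and inhibits it, and LIPE, the hormone-sensitive lipase, takes the next fatty acid off. In the opposite direction GPAM, a mitochondrial acyltransferase, adds an acyl chain to glycerol-3-phosphate at the start of synthesis, and DGAT1 and DGAT2 complete the triglyceride. The liver of a cow in early lactation takes up fatty acids mobilised from body fat, and the lactating gland makes triglyceride for milk.

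The study asked how supplements of vitamins B9 and B12 change gene expression in both tissues. Each cow was injected weekly with 5 mL of saline (Ctl), 320 mg of B9, 10 mg of B12 or these doses of both together (B9 + B12), and biopsies were taken 64 ± 3 days after calving. The liver arrays came from 3 Ctl, 3 B9, 4 B12 and 2 B9 + B12 cows, and the mammary arrays from 3, 3, 4 and 3 cows in the same order, so that 12 of the 13 cows gave both tissues. All cows were multiparous and lactating, each array held the RNA of 1 cow, and p-values measure the spread between cows, whose small number limits precision.

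Values are log2 fluorescence intensities, normalized by quantiles among the arrays of a tissue, and the brightest probe in a tissue stands for its gene. A gene was called changed when limma gave an adjusted p of at most 0.05 over all 43653 probes and a change of at least 2-fold. Levels of different probes are not on a common scale and were not set against each other. Since each biopsy is a mixture of cells, fewer cells of a type and less RNA per cell cannot be told apart.

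From 71.2% to 84.2% of probes were well above background on the liver arrays and from 64.5% to 76.5% on the mammary arrays. All 8 hepatocyte markers (such as ALB and TTR) were well above background on all liver arrays, and the 7 measured markers of mammary epithelium (such as CSN2 and LALBA) on all mammary arrays. This alone does not mark a tissue, as 4 hepatocyte markers were so on all mammary arrays and 6 epithelial markers on all liver arrays. Between the tissues all 8 hepatocyte markers were called higher in the liver. Of the epithelial markers 6 were called higher in the gland and 1 higher in the liver (3.31 on the log2 scale). The liver arrays of cow 57 (B9) and cow 32 (B9 + B12) stood apart, with a median correlation of 0.972 and 0.973 with the other liver arrays. No probe of the 7 genes was saturated. The brightest probes were well above background on every array, other than that of ABHD5, which was so on 12 of 13 mammary arrays. LIPE in both tissues, and ABHD5 and DGAT2 in the gland, lay near the floor that the background correction sets, where differences are compressed.

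Both G0S2 probes of the array, A_73_100624 and A_73_P451976, are assigned to the transcript against which the study also designed its G0S2 primers for quantitative PCR. The primers are shown because they mark the stretch of the transcript in which G0S2 was also read by a method other than the array. The PCR values were not analysed here, and the letters are all in lower case because no base is singled out.
G0S2 forward primer: ccacgtccaaagctaggtacct
G0S2 reverse primer: tcctttcaccctcgtgcaa

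In control liver, G0S2 had a log2 intensity of 11.22 in cow 42, 12.51 in cow 43 and 11.84 in cow 51. In the liver of B12 cows it was 14.12 in cow 36, 13.77 in cow 37, 14.43 in cow 40 and 12.79 in cow 52. All 4 B12 arrays lay above the 3 control arrays, and cow 52, the lowest of them, was 0.29 above the highest control. This pattern chose the set. The mean was 11.85 ± 0.65 (SD, n = 3) in Ctl livers and 13.78 ± 0.71 (SD, n = 4) in B12 livers, 1.93 apart on the log2 scale (standard error 0.56), or 3.80-fold, given as a description with no test. Across all probes 0.00229% were called in this comparison, and the arrays of the groups did not overlap for 4.97%, made up of 2.42% higher and 2.55% lower with B12. The other G0S2 probe differed by 1.85 and, over the liver arrays, followed the brightest with a correlation of 0.989 (n = 12). Within the arrays scanned on the first day the difference was 2.26 (3 B12 and 2 Ctl arrays), and between the single B12 and the single Ctl array scanned on the second day it was 1.26.

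With B9 alone, liver G0S2 was 13.57 in cow 39, 12.41 in cow 41 and 14.50 in cow 57. The array of cow 57 was the highest of all liver arrays, whereas that of cow 41 lay just below the highest control array, so that the groups overlapped. G0S2 thus differed by 1.64 on the log2 scale (standard error 0.59, 95% interval 0.32 to 2.97), with a limma adjusted p of 0.906 and an unadjusted p of 0.0203, and permuting the arrays gave p = 0.2 (exact, two-sided). No gene of the set was called with B9 in the liver, against 0% of all probes, and at an unadjusted p under 0.05 limma had 1545 probes (3.54%). For none of the 7 genes were the B9 livers all beyond the controls, against 8.44% of probes (4.3% higher, 4.14% lower). Without cow 57 and cow 32, the arrays that stood apart, the log2 fold change of G0S2 was 1.14.

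Both B9 + B12 livers had more G0S2 than every control liver, with 12.82 in cow 32 and 13.92 in cow 38. They differed from the controls by 1.52 on the log2 scale (standard error 0.66, 95% interval 0.034 to 3.00), with a limma adjusted p of 0.687. Permuting the arrays gave p = 0.2 (exact, two-sided), where 2 arrays against 3 allow no less than 0.1. With the array of cow 32 alone on its scan day the difference from the control of that day was 0.31, and with cow 38 on the other day it was 2.39. Called probes were 0% of all probes here too, with 2496 probes (5.72%) at an unadjusted p under 0.05, and the arrays of the groups did not overlap, in either direction, for 21.8% of probes. The comparisons of B9, B12 and B9 + B12 with Ctl share the same 3 control livers, and a low value in those enters all of them.

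**Figure D1:**
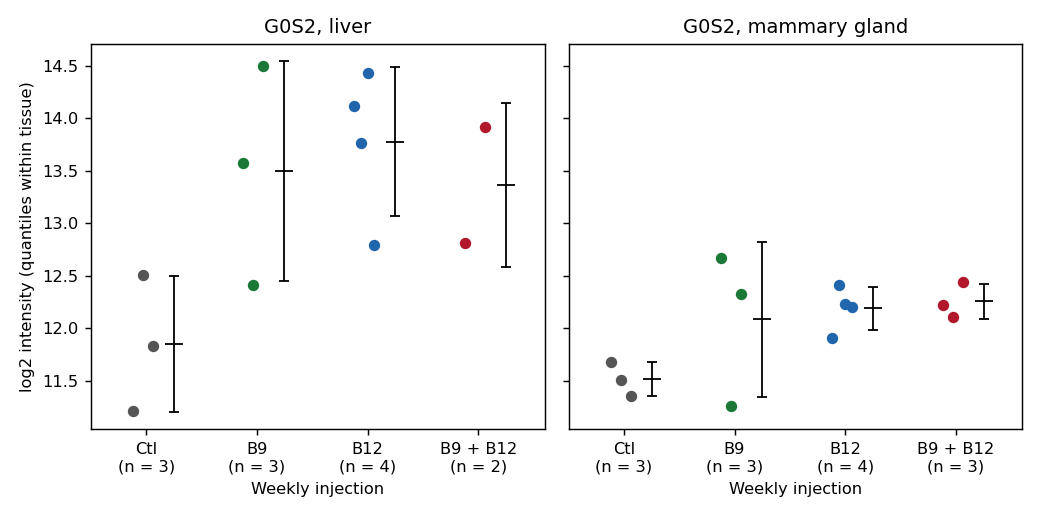
G0S2 log2 intensity on each array (points), by weekly injection, in liver (left) and mammary gland (right), with the mean and SD of each group beside its points. All B12 and B9 + B12 arrays lie above the control arrays of their tissue, and 1 B9 array in each tissue, that of cow 41, does not.

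In the comparison of B9 + B12 with B9 alone, the mean difference and the permutation use neither the control nor the B12 livers that chose the set. The standard error, interval and limma p take their spread from all liver arrays, which were also normalized together. Liver G0S2 was 13.37 ± 0.78 (SD, n = 2) with B9 + B12 and 13.49 ± 1.05 (SD, n = 3) with B9, and the arrays overlapped. G0S2 with both vitamins differed from B9 alone by −0.12 on the log2 scale (standard error 0.66, 95% interval −1.61 to 1.36), with a limma adjusted p of 0.999 and p = 0.9 by exact permutation (two-sided). Of the 7 genes 0 were called, as were 0% of all probes, with 2113 (4.84%) at an unadjusted p under 0.05. None of the 7 separated the groups, against 13.7% of probes (6.76% higher, 6.94% lower). The sign of the G0S2 difference turned with single arrays, to 0.38 without cow 57 of the B9 group and to 0.43 without cow 32, and with both left out it was 0.93. With slide as a fixed block it was −1.13. The interval spans both a fall and a rise of more than 2-fold, so that an added effect of B12 was not detectable with these arrays.

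In the mammary gland, control G0S2 was 11.68 in cow 42, 11.51 in cow 43 and 11.36 in cow 51. With B12 it was 11.91 in cow 36, 12.42 in cow 37, 12.23 in cow 40 and 12.20 in cow 52, all above the control arrays. The mean was 11.52 ± 0.16 (SD, n = 3) in control glands and 12.19 ± 0.21 (SD, n = 4) in B12 glands, which is 0.67 more on the log2 scale (standard error 0.27, 95% interval 0.079 to 1.27), or 1.59-fold. Permuting the arrays gave p = 0.0286 (exact, two-sided), the smallest that 4 arrays against 3 allow, but the limma adjusted p was 1.00 and G0S2 was not called. No gene of the set was called with B12, against 0% of all probes and 997 probes (2.28%) at an unadjusted p under 0.05, and G0S2 was the only gene of the 7 to separate the groups, against 3.88% of probes (2.27% higher, 1.61% lower). The control and B12 glands came from the same cows as the livers that chose the set, and the values are those of another tissue in those cows, not of other animals.

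With B9 + B12, mammary G0S2 was 12.22 in cow 31, 12.11 in cow 32 and 12.44 in cow 38, again above all control arrays. This was 0.74 more than in control glands (log2, standard error 0.29, limma adjusted p = 1.00), and exact permutation gave p = 0.1 (two-sided), the smallest that 3 arrays against 3 allow. With B9 it was 12.67 in cow 39, 11.26 in cow 41 and 12.33 in cow 57, where cow 41 had the lowest value of all mammary arrays. B9 glands exceeded controls by 0.57 in the mean (standard error 0.29, limma adjusted p = 1.00, p = 0.4 by exact permutation, two-sided), with overlapping arrays. This value was 0.28 without cow 39, 0.98 without cow 41 and 0.23 with array weights. Between B9 + B12 and B9 glands the log2 difference was 0.17 (standard error 0.29, 95% interval −0.46 to 0.80, limma adjusted p = 1.00, p = 0.9 by exact permutation, two-sided). No gene of the set was called in these 3 comparisons, against 0% of all probes in each. Probes at an unadjusted p under 0.05 numbered 1112 (2.55%) for B9, 852 (1.95%) for B9 + B12 and 1016 (2.33%) for B9 + B12 against B9.

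Over the 12 cows with both tissues, G0S2 in the liver and in the gland went together, with Pearson's r of 0.70 and Spearman's rho of 0.67. The pairs share the cow and its injection, and the control and B12 livers among them chose the gene, so that the relation is a description without a test. Leaving out the 2 cows whose liver values were farthest from the median gave an r of 0.62 (n = 10). The lowest treated value in both tissues belonged to cow 41. A difference between the tissues in the response to B9 or B9 + B12 was tested as an interaction in limma, and 0 probes were called. For G0S2 the liver response exceeded that of the gland by 0.89 with B9 (standard error 0.64) and by 0.58 with B9 + B12 (standard error 0.68), with limma adjusted p of 1.00 and 0.859. The liver responses are taken from the control livers that helped choose G0S2, so these differences are not free of that choice.

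PNPLA2, the lipase that G0S2 inhibits, showed no such separation in the liver. Its log2 intensity was 12.71, 12.59 and 12.52 in the Ctl cows 42, 43 and 51, and 12.51, 12.26 and 12.72 in the B9 cows 39, 41 and 57. With B12 it was 12.64, 12.37, 12.38 and 12.09 in cows 36, 37, 40 and 52, and with B9 + B12 it was 13.07 in cow 32 and 12.64 in cow 38. The log2 fold change was −0.11 with B9 (standard error 0.17) and 0.25 with B9 + B12 (standard error 0.19), and both treated groups overlapped the control group. In the gland, PNPLA2 was 9.87, 9.71 and 9.43 in Ctl cows 42, 43 and 51, against 9.90, 10.13 and 10.20 in B9 + B12 cows 31, 32 and 38. The B9 + B12 arrays lay above the controls by as little as 0.024, and the log2 fold change was 0.41 (standard error 0.22, limma adjusted p = 1.00, p = 0.1 by exact permutation, two-sided). G0S2 and PNPLA2 were the genes of the set that separated these groups, both higher, against 6.89% of all probes (3.43% higher, 3.46% lower).

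ABHD5, the co-activator of PNPLA2, and LIPE, which acts after it, stayed within narrow ranges. ABHD5 lay between 7.23 and 7.59 (median 7.33, n = 12) over the liver arrays, and LIPE between 6.20 and 6.53 (median 6.31, n = 12). In no liver comparison did the treated arrays of either gene leave the range of the control arrays altogether, and their log2 fold changes with B9 and B9 + B12 lay between −0.011 and 0.11. In the gland ABHD5 was 6.24, 6.32 and 6.29 with B9 against 6.24, 6.16 and 6.20 in Ctl cows, a separation smaller than 0.01 on the log2 scale. Its fold change of 0.083 turned to −0.19 when arrays were scaled by their 75th percentile, and reached 0.65 at the other end of the alternatives. LIPE ranged from 6.42 to 6.65 (median 6.53, n = 13) over the mammary arrays. For LIPE, the other 2 probes were well above background on 2 to 4 arrays of a tissue and add nothing to the brightest.

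GPAM, which starts glycerolipid synthesis in mitochondria, lay lower in 8 of the 9 treated livers than in every control liver. It was 11.12, 11.38 and 12.11 in the Ctl cows 42, 43 and 51, and 10.66, 11.15 and 10.32 in the B9 cows 39, 41 and 57. With B12 it was 10.53, 10.52, 10.54 and 11.01 in cows 36, 37, 40 and 52, and with B9 + B12 it was 10.38 in cow 32 and 10.55 in cow 38. All B12 and B9 + B12 livers lay below every control liver, while cow 41 of the B9 group did not. The mean was 11.53 ± 0.51 (SD, n = 3) in Ctl and 10.47 ± 0.12 (SD, n = 2) in B9 + B12 livers, and they differed by −1.07 on the log2 scale (standard error 0.31, 95% interval −1.75 to −0.38, limma adjusted p = 0.687, unadjusted p = 0.00602). Exact permutation gave p = 0.1 (two-sided), the smallest possible with 2 arrays against 3, and GPAM was not called. With B9 the log2 fold change was −0.82 (standard error 0.27, limma adjusted p = 0.906, p = 0.2 by exact permutation, two-sided). With B12 the difference was −0.88, described without a test because that comparison chose the set.

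The control mean of GPAM rested partly on cow 51, the highest liver array at 12.11. Without it the difference shrank to −0.60 in B12 livers and to −0.78 in B9 + B12 livers. The difference in B9 livers rests on the same control mean. The remaining GPAM probes, A_73_120284 and A_73_P250886, gave −1.05 and −0.64 for B9 + B12, −0.68 and −0.64 for B12, and −0.35 and −0.29 for B9. Of these, only A_73_120284 with B9 + B12 was free of overlap with the controls. B9 + B12 against B9 gave −0.24 (standard error 0.31, limma adjusted p = 0.998). In the gland the log2 fold changes of GPAM lay between −0.12 and 0.40 over the 4 comparisons, and all of them overlapped for the brightest probe, though A_73_120284 had B9 + B12 glands above the controls by 0.47 (standard error 0.24, limma adjusted p = 1.00). The difference between liver and gland in the response of GPAM to B9 + B12 was −1.22 (standard error 0.40, limma adjusted p of the interaction = 0.835).

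Among the DGAT enzymes, which form triglyceride from diacylglycerol, B9 + B12 livers differed from control livers in opposite directions and by little. DGAT1 was 10.48, 10.28 and 10.72 in Ctl cows 42, 43 and 51 and 10.11 and 9.78 in B9 + B12 cows 32 and 38, all below the controls, with a log2 fold change of −0.55 (standard error 0.35, limma adjusted p = 0.687). DGAT2 was 11.60, 11.53 and 11.48 in the same Ctl cows and 11.75 and 11.79 in the same B9 + B12 cows, all above the controls, with a log2 fold change of 0.23 (standard error 0.48, limma adjusted p = 0.880). For each of these genes exact permutation gave p = 0.1 (two-sided), the smallest possible. Their other probes changed the same way, but with overlapping arrays, by −0.46 and −0.34 for DGAT1 and by 0.19 and 0.21 for DGAT2. With G0S2 and GPAM, 4 of the 7 genes thus had B9 + B12 livers beyond all control livers, 2 above (12% of all probes) and 2 below (9.8% of all probes).

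In B9 and B12 livers DGAT2 spread widely, from 10.61 in cow 41 and 10.68 in cow 52 to 12.24 in cow 57, on both sides of the narrow control range, and no such comparison separated the groups. DGAT1 likewise spanned 9.91 to 11.14 among B12 livers. In the gland, DGAT2 was 6.99, 6.98 and 6.50 in B9 cows 39, 41 and 57, against 6.38, 6.50 and 6.30 in Ctl cows 42, 43 and 51 and 6.24, 6.40 and 6.40 in B9 + B12 cows 31, 32 and 38. Its B9 arrays lay above both of the other groups, by 0.43 against Ctl (standard error 0.18), although the lowest B9 array exceeded the highest control by only 0.0017, and with B9 + B12 lower than B9 by −0.48 (standard error 0.18), each with a limma adjusted p of 1.00 and p = 0.1 by exact permutation (two-sided), the smallest possible. DGAT2 and ABHD5 were the genes of the set with B9 glands above the controls, against 3.83% of probes (3.15% below, 6.98% in either direction). The size of both DGAT2 differences moved with the processing, from 0.18 to 1.05 for B9 against Ctl and from −1.16 to −0.38 for B9 + B12 against B9. DGAT2 alone had B9 + B12 glands below B9, against 3.53% of probes (2.83% above, 6.35% in either direction). Of the other DGAT2 probes, A_73_P319411 changed by 0.36 with B9, also above all controls, but A_73_P102136 differed from the brightest in the gland (r = 0.29 over 13 arrays) and changed by −0.27 with B9.

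**Figure D2:**
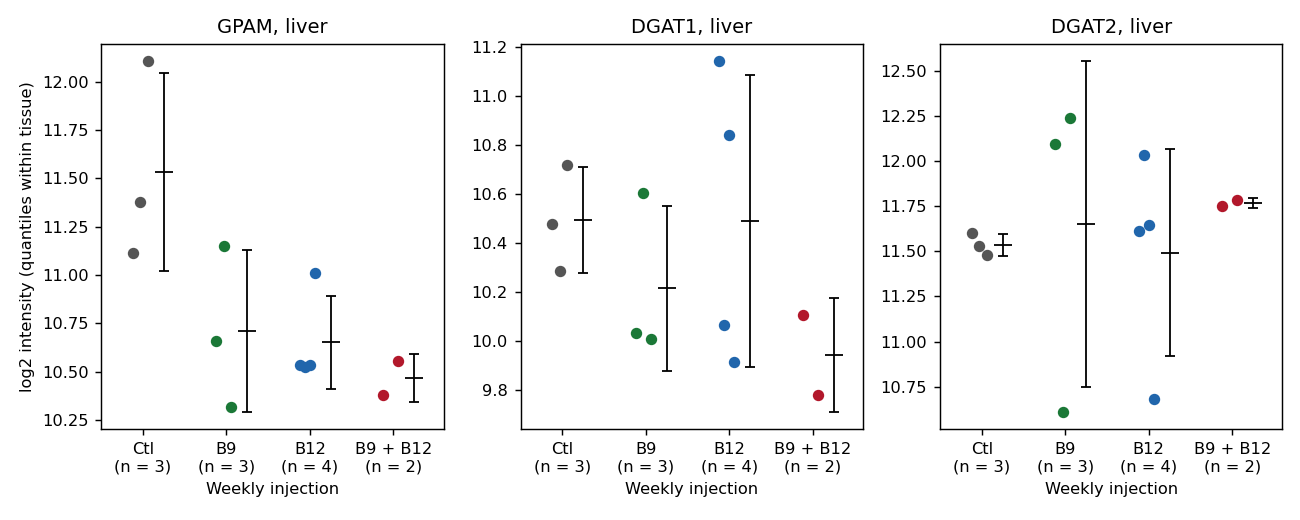
Log2 intensity of GPAM, DGAT1 and DGAT2 on each liver array (points), by weekly injection, with the mean and SD of each group; the vertical scales differ. B12 and B9 + B12 livers lie below the control livers for GPAM, B9 + B12 livers lie below them for DGAT1 and above them for DGAT2.

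**Figure D3:**
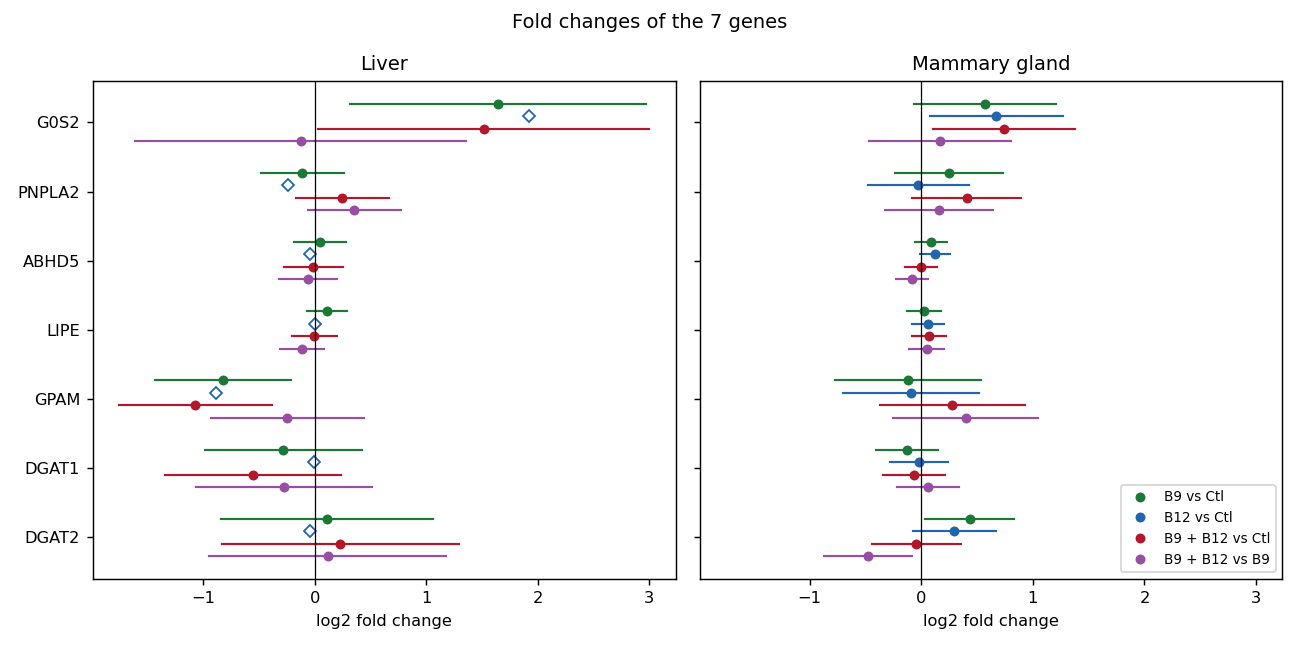
Log2 fold changes of the 7 genes in liver (left) and mammary gland (right) for 4 comparisons, with 95% intervals from limma; open diamonds are the B12 livers that chose the set, shown without interval. G0S2 lies to the right of 0 in every comparison with the control group in both tissues, at 0.57 to 1.93, and GPAM to the left of 0 in the liver, at −1.07 to −0.82.

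Across the 12 liver arrays, G0S2 and GPAM moved in opposite directions, with Pearson's r of −0.76 and Spearman's rho of −0.80. Leaving out the 2 arrays farthest from the G0S2 median gave −0.76 (n = 10). After removal of the group means r was −0.47, so that part of the relation lay between the groups, among them the groups that chose the set. DGAT2 went with G0S2 (r = 0.48, rho = 0.70), with r of 0.72 after removal of the group means. Cows 41 and 52 had the lowest G0S2, the highest GPAM and the lowest DGAT2 of the treated livers. These relations are descriptions over arrays that share treatments and normalization, and the gland did not show them (r of −0.15 for GPAM and −0.0030 for DGAT2, n = 13). PNPLA2 was related to G0S2 with r of −0.015 in the liver and 0.55 in the gland, and the latter fell to 0.25 without the 2 arrays farthest from the median.

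**Figure D4:**
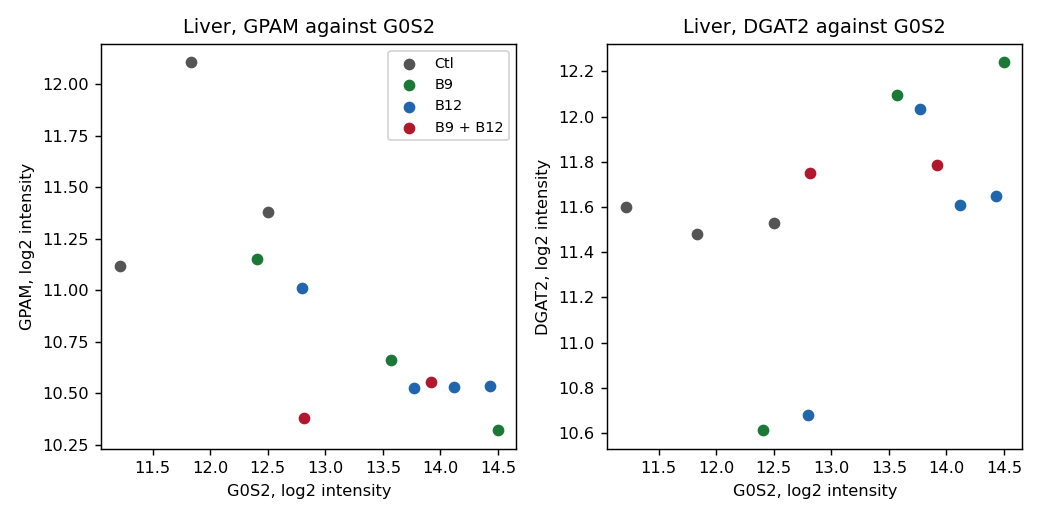
GPAM (left) and DGAT2 (right) against G0S2 on the 12 liver arrays, in log2 intensity, coloured by weekly injection. GPAM is lower where G0S2 is higher (r = −0.76), DGAT2 goes with G0S2 less closely (r = 0.48), and the control livers sit at the low end of G0S2.

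Among all genes well above background, those whose liver levels were most like G0S2 were TMEM86A (r = 0.89), NDRG2 (r = 0.85), SYNGR2 (r = 0.84), GRHPR (r = 0.83) and RILPL2 (r = 0.83), over 12 arrays and 8936 genes. In the gland they were DYNLT3 (r = 0.81), BET1L (r = 0.81), NNT (r = 0.80), ESRRA (r = 0.79) and IPO13 (r = 0.78), over 13 arrays and 8472 genes. No gene was in both lists, but lists this short, taken from so many genes, would seldom share one. The liver arrays include those that chose G0S2, and the highest of many correlations over few arrays are high by selection.

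Other genes of triglyceride metabolism were counted in 5 lists. Of 14 further lipolysis genes 12 were measured, of 17 glycerolipid synthesis genes 14, of 11 lipid droplet genes 10, of 8 genes of lipid export and uptake 6, and of 9 regulators 7. No gene of these lists was called in any treatment comparison of either tissue, where at most 0.00229% of all probes were. In B9 + B12 livers, 6 of the 14 synthesis genes did not overlap with the controls, 5 of them higher, where 21.8% of all probes did not overlap. The count was 5 of 14 (4 higher) in B9 livers, where 8.44% of all probes did not overlap, and 3 of 14 (2 higher) in B12 livers, where 4.97% did not. This list was singled out after its values were seen. In B9 + B12 livers the other lists had 2 of 12 lipolysis genes, 0 of 10 lipid droplet genes, 1 of 6 export and uptake genes and 2 of 7 regulators without overlap. In the gland the synthesis list had 1 of 14 with B9, 0 of 14 with B12 and 1 of 14 with B9 + B12. Of all probes 6.98%, 3.88% and 6.89% did not overlap in these gland comparisons, in the same order. Beside those shares of all probes, the other 4 lists in the gland had at most 2 genes each without overlap in any comparison with Ctl. Among these was CIDEA, a lipid droplet protein and the gene of these lists with the largest treatment difference, which was −1.93 in B9 glands, below all controls (limma adjusted p = 1.00, unadjusted p = 0.00153), and 1.69 in B9 + B12 against B9 glands, without overlap (limma adjusted p = 1.00). The synthesis genes without overlap in B9 + B12 livers were the acyltransferases AGPAT2 (0.74), AGPAT3 (0.19), GPAT2 (0.30) and GPAT3 (0.58) and the phosphatase PLPP2 (0.30), with GK, the glycerol kinase, lower (−0.21), where values are log2 fold changes with limma adjusted p between 0.687 and 0.871. The median change of that list was 0.18, against 0.017 over all probes. HILPDA, like G0S2 an inhibitor of PNPLA2, differed by 0.42 in B12 livers, the comparison that chose the set, with all treated arrays above the controls as for 2.42% of all probes. It overlapped the controls elsewhere, at 0.31 in B9 livers, at 0.16 in B9 + B12 livers and at −0.072, −0.037 and 0.26 with B9, B12 and B9 + B12 in the gland. In B9 + B12 livers the lysosomal lipase LIPA (−0.28) and SREBF1, a regulator of lipid synthesis (−0.62), lay below all controls, and PNPLA4 (0.79) and PPARG, a nuclear receptor (0.25), above them, with limma adjusted p between 0.687 and 0.696. VLDLR, a receptor that takes up lipoprotein triglyceride, was 0.99 higher in B9 + B12 livers on the log2 scale, with both arrays above the controls (limma adjusted p = 0.687).

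Markers of mammary epithelium in the liver varied with the groups, although 1 of the 7 measured was itself higher in the liver than in the gland. Their summed level lay between 13.62 and 14.39 in Ctl livers, 14.22 and 14.64 in B9, 13.80 and 15.46 in B12 and 13.82 and 14.65 in B9 + B12 livers (log2, 7 of 8 markers measured), against at least 20.69 in the gland. Their median difference from Ctl was 1.68 in B12 livers (6 of 7 markers above 0, none without overlap), 0.82 in B9 livers (7 of 7 above 0, 4 with all B9 arrays above the controls, as for 4.3% of all probes) and 0.74 in B9 + B12 livers (6 of 7 above 0, 5 with all arrays above the controls, as for 12% of all probes), and none was called. Adipocyte markers summed to between 10.29 and 10.33 in B9 + B12 livers, below the 10.50 to 11.33 of Ctl livers (6 of 7 measured). That lower sum came from THRSP (−1.61), while the other 5 markers were above 0 and the median difference was 0.084. B12 livers lay between 10.02 and 11.19. Muscle markers (4 of 4 measured) were slightly above the Ctl range of 9.43 to 9.50 in B9 livers (9.65 to 9.79) and B12 livers (9.58 to 9.74). All 4 of them were above 0 in B9 livers, but in B12 livers ACTA1 alone was (0.33) and the median difference was −0.032. Summed endothelial markers (2 of 3 measured) lay above the Ctl range of 9.12 to 9.43 in B9 + B12 livers (9.74 to 10.16). Macrophage markers (5 of 6 measured) reached 14.02 in 1 B9 + B12 liver against at most 13.40 in Ctl livers. Of the 8 hepatocyte markers, 1 lay above and 2 below all controls in B9 + B12 livers, as for 12% and 9.8% of all probes. Their differences there ran from −0.64 to 1.04 with a median of 0.027, and none was without overlap in B9 or B12 livers. In the gland, adipocyte markers summed to between 16.16 and 16.25 with B9 + B12, above the 15.73 to 16.05 of Ctl glands, with FABP4 0.32 higher but only 2 of the 6 markers above 0. All 8 hepatocyte markers were above 0 in B9 glands (median 0.53) and in B9 + B12 glands (median 0.30), none without overlap, and in B12 glands 4 of 8 were. The part of these cells in the values of G0S2, PNPLA2, GPAM and DGAT2 was not tested.

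The largest differences of the set lay between the tissues. For this comparison the arrays of both tissues were normalized together. DGAT2 was higher in the liver, at 9.90 to 11.42 (median 10.84, n = 12) against 6.41 to 7.47 (median 6.71, n = 13) in the gland, a difference of 4.01 on the log2 scale (standard error 0.17, limma adjusted p = 2e-14) or 16.1-fold. PNPLA2 was also higher in the liver, at 11.28 to 12.16 (median 11.70) against 10.07 to 11.22 (median 10.46), a difference of 1.19 (standard error 0.10, limma adjusted p = 3.1e-09). GPAM was higher in the gland, at 14.44 to 15.66 (median 15.20) against 9.63 to 11.29 (median 9.89) in the liver, a difference of −5.05 for liver minus gland (standard error 0.13, limma adjusted p = 1.09e-17), or 33.2-fold. The tissues did not overlap for any of the 3 genes, and each difference had its direction in all 12 cows with both tissues. The sizes moved with the normalization: with the authors' table the differences were 5.71 for DGAT2, 2.80 for PNPLA2 and −3.53 for GPAM.

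Thus 2 of the 7 genes were called higher in the liver and 1 in the gland, where 8.8% and 9.89% of all probes were, or 18.7% in either direction. ABHD5 differed by 0.62 and LIPE by −0.58, without overlap but under 2-fold, and DGAT1 by 0.42 with overlap. The direction for G0S2 hung on the normalization. With both tissues normalized together it was 12.24 ± 0.96 (SD, n = 12) in the liver and 12.94 ± 0.48 (SD, n = 13) in the gland, a difference of −0.71 (standard error 0.23, limma adjusted p = 0.0102), with 3 of 12 cows higher in the liver. With quantiles within each tissue the difference was 1.11 in the other direction, and with 75th percentile scaling it was −0.079, so that no order of the tissues is given for G0S2. ABHD5 changed sign too, to −0.087 with 75th percentile scaling, and passed 2-fold at 1.65 with the authors' table. LIPE passed 2-fold at −1.38 with 75th percentile scaling and at −2.32 with the processed signal scaled in that way.

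**Figure D5:**
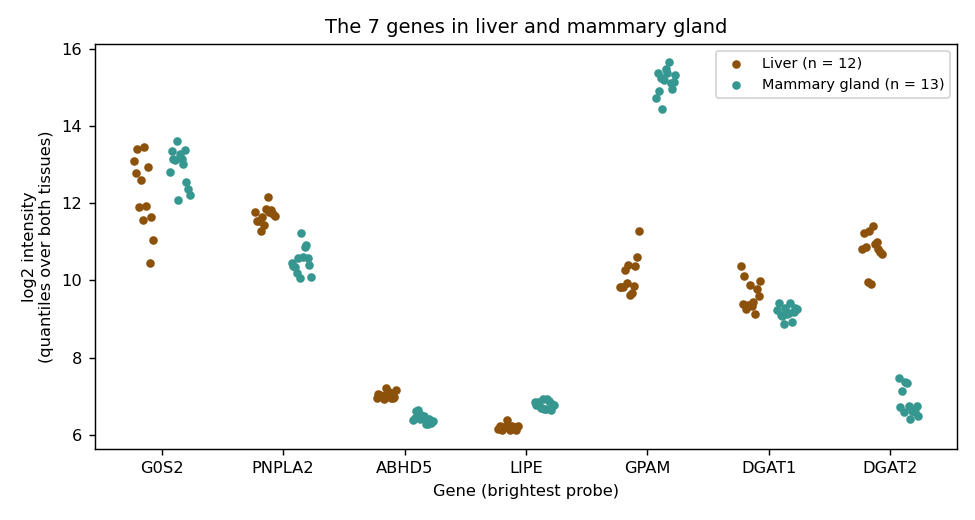
Log2 intensity of the brightest probe of each of the 7 genes on the 12 liver and 13 mammary arrays, after quantile normalization over both tissues; levels of different genes are not on a common scale. GPAM separates with the gland higher, DGAT2 and PNPLA2 with the liver higher, and G0S2 overlaps.

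Further genes around triglyceride also differed between the tissues. Of the 12 lipolysis genes measured 5 were called higher in the liver and 3 in the gland, against 8.8% and 9.89% of all probes. Among them the carboxylesterase CES1 was higher in the liver (7.17) and FABP4, a fatty acid binding protein, in the gland (−9.07, log2 difference, liver minus gland). Of the 14 glycerolipid synthesis genes 3 were higher in the liver, among them AGPAT2 (3.64), and 2 in the gland, AGPAT1 (−4.23) and GPAT4 (−3.29). Among lipid droplet genes CIDEB was higher in the liver (5.33) and PLIN2 (−5.18) and CIDEA (−4.50) in the gland. LPL, the lipase that frees fatty acids from lipoproteins (−8.32), and CD36, a fatty acid carrier (−6.63), were higher in the gland, and MTTP, which loads lipoproteins (3.01), in the liver.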

How the data were processed

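The authors deposited the Feature Extraction output of 25 one-colour Agilent arrays, with a fluorescence intensity per spot not normalized between arrays (version 9.1 in the submitters' processing notes), and their own table of log2 values after processing. Here the deposited median intensity was background corrected with normexp and an offset of 50, put on the log2 scale and quantile normalized among the arrays of a tissue, or of both tissues for liver against gland. Outlier spots were left out and spots of a probe averaged. Probes were named by accession through a RefSeq gene table: 23509 of 43653 probes had a symbol. Differences were tested with limma 3.58.1 in R 4.3.3 (empirical Bayes, Benjamini-Hochberg over all probes) and tested on simulated data. Liver and gland arrays of the same cow are paired by the cow: their deviations from the group means had a median correlation of 0.037 over 12 cows. The genes and lists were chosen with earlier results of these data known. By rule the text gives G0S2 in each contrast and other genes of the set by fold change where arrays did not overlap; values of PNPLA2, ABHD5, LIPE and GPAM where arrays overlapped were added beside them. The alternatives tried were other background corrections, scalings and probe rules, the authors' log2 table, blocks of slide, scan day or cow, array weights, Cyber-T, a filter on dim probes and leaving out arrays; scan day and the 2 arrays of lowest correlation were chosen after seeing the data.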

Additional observations from a re-analysis of the deposited data

Results flagged for a closer look

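In the B12 livers, the GPAM value of cow 52 stood apart from the other 3: it was 11.01 against 10.54 for the nearest, and this gap made up 0.977 of the range of the group. On the other GPAM probes cow 52 was also the highest B12 liver, but close to the next, at 8.25 against 8.10 and 8.27 against 8.13. The limit applied to such gaps is one that chance passes in about 1 of 20 groups, and this gap was beyond it. Of the treated livers, cow 52 also had the second lowest G0S2, at 12.79.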

How the results depend on the processing

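The count of called genes of the set stayed at 0 in all 7 tested treatment comparisons under every alternative run. In liver against gland 3 genes were called. The largest moves were to 5 with processed signal scaled by its 75th percentile, to 6 with the authors' table and to 6 with quantiles within each tissue. Smaller moves are not listed, such as that with 75th percentile scaling, where LIPE was called besides the 3. Leaving out 1 array at a time gave 3 to 3. With the cow as a replicate block (pairing liver and gland of a cow, random or fixed) the count was 3 and no call changed; G0S2 was then −0.71 either way. Between tissues G0S2 reversed to 1.11 with the authors' table and to 1.11 with quantiles within each tissue. These are not separate alternatives: the authors' table differed from quantiles within each tissue, at an offset of 16, by a median of 0.0018 in liver and 0.00095 in gland. G0S2 reached −1.24 with slide as a fixed block, and ABHD5 reversed to −0.087 with 75th percentile scaling. For B9 + B12 against B9, liver G0S2 went from −0.12 to −1.13 with slide as a fixed block, turned to 0.20 with array weights, to 0.93 without both arrays of lowest correlation, and ranged from −0.68 to 0.43 with 1 array left out; mammary G0S2 turned from 0.17 to −0.065 with slide as a fixed block and ranged from −0.24 to 0.46 with 1 array left out. Mammary ABHD5 with B9 turned to −0.19 with 75th percentile scaling and reached 0.65 at the other end of the alternatives. The cause was not tested. G0S2 against Ctl kept its sign throughout, at 1.14 to 2.73 for B9 (the highest with slide as a fixed block), 1.61 to 2.25 for B12 and 0.96 (without cow 38) to 2.07 for B9 + B12 in the liver. The B12 range comes from the arrays that chose the set, and the B9 and B9 + B12 ranges reuse its control livers. The kept sign is thus a description and no separate check of the G0S2 difference. Across all alternatives the difference between tissues ran from 3.53 to 5.71 for DGAT2, 1.08 to 2.80 for PNPLA2, −5.13 to −3.49 for GPAM, −2.32 to −0.22 for LIPE and −0.087 to 1.65 for ABHD5. B9 + B12 livers number 2, which limits that comparison, and probes near the floor understate changes.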
